A study of Mus musculus with 108 samples.

Results

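The genes described here are the regulators of cullin activity Nedd8, Uba3, Nae1, Ube2m, Ube2f, Dcun1d1, Cand1, Cand2, Cops5 and Cops8, 10 of the 53465 genes of the deposited table, chosen by name. Cullins are scaffolds of ubiquitin ligases and are switched on when the ubiquitin-like protein NEDD8 is attached to them. NEDD8 is activated by the E1 enzyme, a heterodimer of NAE1 and UBA3, passed to the E2 enzymes UBE2M or UBE2F, and placed on the cullin with the help of DCN-type factors such as DCUN1D1. The COP9 signalosome, whose catalytic subunit is COPS5 and which also holds COPS8, removes NEDD8, and CAND1 and its paralog CAND2 bind cullins that lack it and exchange their substrate receptors. CUL3, the cullin mutated in these mice, belongs to the proteins regulated in this way.

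RNA was sequenced from 3 brain regions of 36 mice, the cortex (CX), the hippocampus (HIP) and the cerebellum (CB), in embryos at E17.5, pups at P7 and adults (P35), with 6 wild-type (WT) and 6 Cul3+/- (HET) mice per period, and each mouse gave 1 library from each region. All mice were on a C57BL/6N background, and the mutants carried in every cell a germline frameshift insertion in exon 6 of Cul3, made by CRISPR/Cas9 and bred from 1 founder line. WT mice carried no engineered allele, and no animal received a treatment. For 2 adult mice the sample labels and the sample quality table of the study gave opposite genotypes, so their 6 libraries were left out, and their Cul3 levels are given with the closing observations. The comparisons held 102 libraries of 34 mice, with 6 mice per genotype before adulthood and 5 in adults.

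The 10 genes lie on 7 chromosomes of the GRCm38 build. Cand2 (ENSMUSG00000030319) is at chr6:115774538-115805557 on the plus strand and has 1 annotated transcript of 15 exons, and its paralog Cand1 (ENSMUSG00000020114) is at chr10:119199255-119240055 on the minus strand. The E1 genes Nae1 (ENSMUSG00000031878, chr8:104511028-104534637) and Uba3 (ENSMUSG00000030061, chr6:97183670-97205647) are both on the minus strand, and the E2 gene Ube2f (ENSMUSG00000034343, chr1:91250304-91290337) is on the plus strand. Ube2f, Cops8 (chr1:90602981-90613341) and Cops5 share chromosome 1 with Cul3, at 10910 kb, 10263 kb and 70227 kb from it. The counting gave no statement on strand, so reads of overlapping genes on opposite strands may not be told apart, which concerns Nedd8 with Gmpr2 (184 bases), Dcun1d1 with the antisense gene Gm15952 (4401 bases), Cand2 with Rpl32 (53 bases) and Cops5 with Cspp1 (182 bases). Of the windows of 100 bases in the annotated transcripts of Dcun1d1, 14.03% were shared with Tes3-ps. The share of its counts that this concerns was not measured.

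Promoter windows of 300 bases, from 250 before to 50 after the start, were in the RefSeq table (GRCm38.p6) for 8 of the 10 genes, and not for Cand2 and Cops5. The windows of Nae1 and Uba3 are shown because both genes encode a part of the same E1 enzyme and their levels took different courses, and the upstream of the Ube2f windows because Ube2f rose in all regions. They are at chr8:104534588-104534887 (minus strand), chr6:97205598-97205897 (minus strand) and chr1:91250054-91250353 (plus strand), each written 5′ to 3′ along its gene, and capitals mark matches on either strand to the Sp1 motif GGGCGG, the ETS core CCGGAAG and CCAAT.
Nae1: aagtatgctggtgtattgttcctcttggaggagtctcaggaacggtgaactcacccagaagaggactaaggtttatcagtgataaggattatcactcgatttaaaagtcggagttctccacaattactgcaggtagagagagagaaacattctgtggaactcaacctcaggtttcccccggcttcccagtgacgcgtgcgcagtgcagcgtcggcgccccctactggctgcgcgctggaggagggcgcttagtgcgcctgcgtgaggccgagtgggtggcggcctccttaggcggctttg
Uba3: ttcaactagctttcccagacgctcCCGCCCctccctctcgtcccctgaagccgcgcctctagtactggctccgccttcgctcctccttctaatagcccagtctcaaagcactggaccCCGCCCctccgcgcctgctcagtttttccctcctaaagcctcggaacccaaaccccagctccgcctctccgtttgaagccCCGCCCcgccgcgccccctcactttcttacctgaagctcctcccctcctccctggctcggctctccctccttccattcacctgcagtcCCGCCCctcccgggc
Ube2f: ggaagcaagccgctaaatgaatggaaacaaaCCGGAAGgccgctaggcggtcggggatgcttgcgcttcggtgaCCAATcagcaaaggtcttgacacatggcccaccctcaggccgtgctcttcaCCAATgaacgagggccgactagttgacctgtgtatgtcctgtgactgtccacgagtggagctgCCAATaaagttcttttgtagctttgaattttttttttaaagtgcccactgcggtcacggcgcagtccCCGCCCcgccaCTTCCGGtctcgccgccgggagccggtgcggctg

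The Nae1 window held none of the motifs searched, which also included TATAAA and the palindromic NRF1 motif. The Uba3 window held GGGCGG 4 times. The Ube2f window held CCGGAAG 2 times, CCAAT 3 times and GGGCGG 1 time. Among the 32851 promoter windows of the table, 35.7% held GGGCGG, 8.86% CCGGAAG, 37.4% CCAAT, 13.6% TATAAA and 0.971% the NRF1 motif, and the motifs did not overlap each other in these 3 windows. These matches describe letters only.

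Library totals ran from 15126114 to 44411282 counts, with a median of 3.2664e+07, and the 10 genes took 0.0602% to 0.0922% of the counts of a library. Levels are given as CPM after TMM normalization, and a gene was called at a Benjamini-Hochberg adjusted p under 0.1 in edgeR's quasi-likelihood test over all genes tested. Cul3 was lower in the mutants in all 9 combinations of period and region, by 0.74 to 0.99 on the log2 scale, without overlap between genotypes. Summed cerebellum markers were at 733 to 1667 CPM in WT CB and at most 275 CPM in CX and HIP, and summed forebrain markers were at 242 CPM or more in WT CX and HIP and at most 42.5 CPM in CB, so the markers fitted the labelled regions. Summed choroid plexus markers spanned 6.42 to 4650 CPM among the WT libraries of E17.5 HIP, and their part in the results was not tested.

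All 10 genes were detected in every library and passed the filter on low counts in every comparison. Divided by the length of the principal annotated transcript, the WT level of Nedd8 was first in all 9 groups (76.8 to 102 CPM per kb) and that of Ube2m second (42.9 to 57.0 CPM per kb). The 2 genes with the lowest WT levels per kb were Ube2f (4.52 to 7.28) and Cand2 (0.57 to 6.63), and Ube2f has a long principal transcript of 5654 bases. The WT mean ratio of Ube2m to Ube2f RNA was between 6.28 and 11.03 per kb, with the principal transcript of Ube2m at 1472 bases. This ratio rests on the 1 transcript chosen for each gene, and transcript use was not measured. In CPM the WT means of Ube2m and Ube2f were 73.3 and 25.5 in E17.5 CB, and 67.2 and 41.2 in adult CB. In CPM, the highest WT group mean exceeded the lowest by 11.67-fold for Cand2, 1.79-fold for Nae1, 1.70-fold for Cops5 and 1.61-fold for Ube2f, and by 1.23-fold to 1.37-fold for the other 6 genes. In order of WT mean level, the libraries of neighbouring groups overlapped in all but 3 of 8 neighbour pairs for Cand2, 2 for Nae1, 2 for Ube2f and 1 for Cops5, and in all 8 for the other genes.

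**Figure D1:**
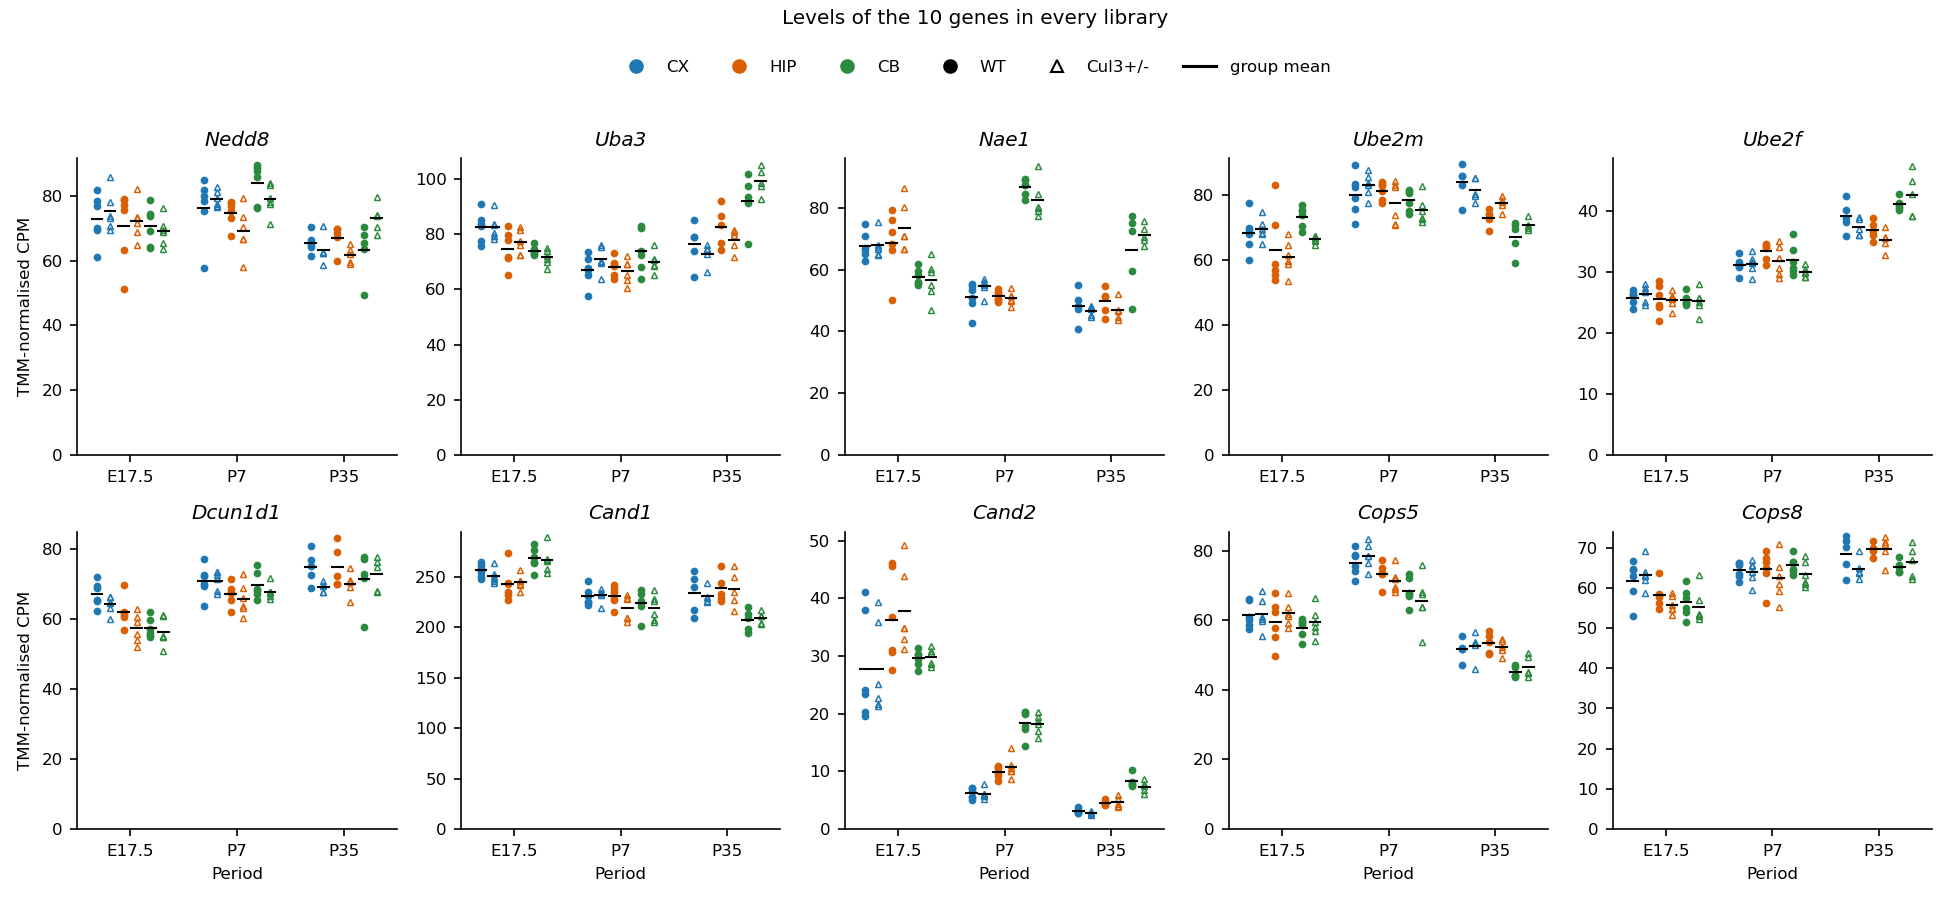
TMM-normalised CPM of the 10 genes in each library, by period and region, with filled circles for WT libraries, open triangles for Cul3+/- libraries, colours for regions and lines for group means. Cand2 falls from 27.8 CPM in E17.5 CX to 3.11 CPM in adult CX in WT mice, and the genotypes overlap throughout except for Ube2m in E17.5 CB.

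The first question was whether the regulators of cullin activity changed when 1 copy of Cul3 was mutated. In the 9 genotype comparisons, 0 of the 90 tests of these genes were called by edgeR, against 1 gene, Cul3 itself, of 16594 to 17754 tested in each comparison. That background was 0.00603% at E17.5 in CX, 0.00586% in HIP and 0.00568% in CB, 0.00566%, 0.00563% and 0.0057% at P7, and 0.00569%, 0.00584% and 0.00584% in adults. The lowest adjusted p among the 90 was 0.351, and 4 tests had an unadjusted p under 0.05, 1 in E17.5 CB (3.5% of all genes there), 1 in adult CX (3.66%) and 2 in adult HIP (6.25%), where the share of all genes over the 9 comparisons was 1.67% to 14.4%. DESeq2 also called 0 of the 90, and its share of all genes called is not given here. The authors, with factors for unwanted variation and sex in the model, report many more genes at a threshold of 0.1. The fit used here called no gene but Cul3, so 0 calls say little about these 10 genes in particular.

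The 95% intervals give, for each test alone, the range of changes in RNA compatible with the fit. They were not widened for the number of tests. Protein levels and the attachment of NEDD8 were not measured in these libraries. The 90 log2 fold changes ran from -0.19 to 0.18 with a median size of 0.0369, and all 90 of their 95% intervals lay between -0.50 and 0.47. Both outer bounds belonged to Cand2 in E17.5 CX, where the libraries spread most, and without Cand2 the bounds were -0.29 and 0.37. Over both genotypes, Cand2 there was at 22.6 to 25.2 CPM in mice whose names hold S2. It was at 35.9 to 41.2 CPM in those with S3 and at 19.6 to 21.7 in those with S4. The fit did not include this grouping, so that interval also holds the spread between these sets. An interval with the grouping in the fit is not given here. The interval included 0 in 86 of the tests.

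The genotypes did not overlap in 1 of the 90 tests, that of Ube2m, the E2 enzyme that serves most cullins, in E17.5 CB. Of all genes, the share without overlap was 0.0663% in CX, 0.0645% in HIP and 0.159% in CB at E17.5, 0.147%, 0.197% and 0.217% at P7, and 0.632%, 0.853% and 3.06% in adults. The 6 WT libraries there were between 68.5 and 76.97 CPM with a median of 74.3, and the 6 HET libraries between 64.5 and 67.4 with a median of 66.4. The means were 73.3 ± 3.21 CPM (SD, n = 6) in WT and 66.3 ± 1.08 CPM in HET. The log2 fold change was -0.13 with an SE of 0.0347 (unadjusted p = 0.0022, adjusted p = 0.988 in edgeR), and its 95% interval ran from -0.21 to -0.06. In adult CB the order of the means was the other way round, 67.2 ± 5.15 CPM in WT and 70.7 ± 1.67 in HET, with overlap. That WT mean includes a library described below, the lowest of its group for Ube2m. The interaction of genotype with period for Ube2m in CB was not called (unadjusted p = 0.0072, adjusted p = 0.308 in edgeR). The libraries of the genotypes overlapped in summed choroid plexus markers in CB, with medians of 4.25 CPM in WT and 24.7 in HET at E17.5, 6.36 and 1448 at P7, and 21.5 and 511 in adults, and their part in the genotype values of CB was not tested.

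The other 3 tests with an unadjusted p under 0.05 were all in adults and were small. In HIP, Nedd8 was at 59.99, 69.8, 67.2, 68.4 and 69.7 CPM in the WT libraries and had a mean of 61.7 ± 2.54 CPM in HET (log2 fold change -0.11, SE 0.0436, unadjusted p = 0.0216, adjusted p = 0.796 in edgeR). Ube2m in HIP had means of 73.0 ± 2.56 CPM in WT and 77.4 ± 2.07 in HET (log2 fold change 0.09, SE 0.0354, unadjusted p = 0.0247, adjusted p = 0.796 in edgeR). Dcun1d1 in CX had means of 74.9 ± 4.54 CPM in WT and 69.1 ± 1.36 in HET (log2 fold change -0.10, SE 0.0453, unadjusted p = 0.0461, adjusted p = 0.997 in edgeR). WT and HET libraries overlapped for all 3.

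Nedd8 in adult CB had a WT mean of 63.3 ± 8.25 CPM and a HET mean of 73.0 ± 4.50 CPM, opposite in order to adult HIP. That WT mean includes the replicate 3 library described below, the lowest of its group for Nedd8. No genotype or interaction value without this library is given here. The interaction of genotype with region for Nedd8 in adults had an unadjusted p of 0.0025 and an adjusted p of 0.255 in edgeR and was not called. None of the 10 genes was called for an interaction of genotype with period or with region. The background was 0% of 19257 genes in CX, 19245 in HIP and 19416 in CB for period, 0% of 18637 genes at E17.5 and of 19381 at P7 for region, and 0.00525% of 19034 in adults. The numbers of these genes at an unadjusted p under 0.05 were 2 for period, both in CB (13.2% of all genes there), and 3 for region, 1 at P7 (4.57%) and 2 in adults (15.8%).

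**Figure D2:**
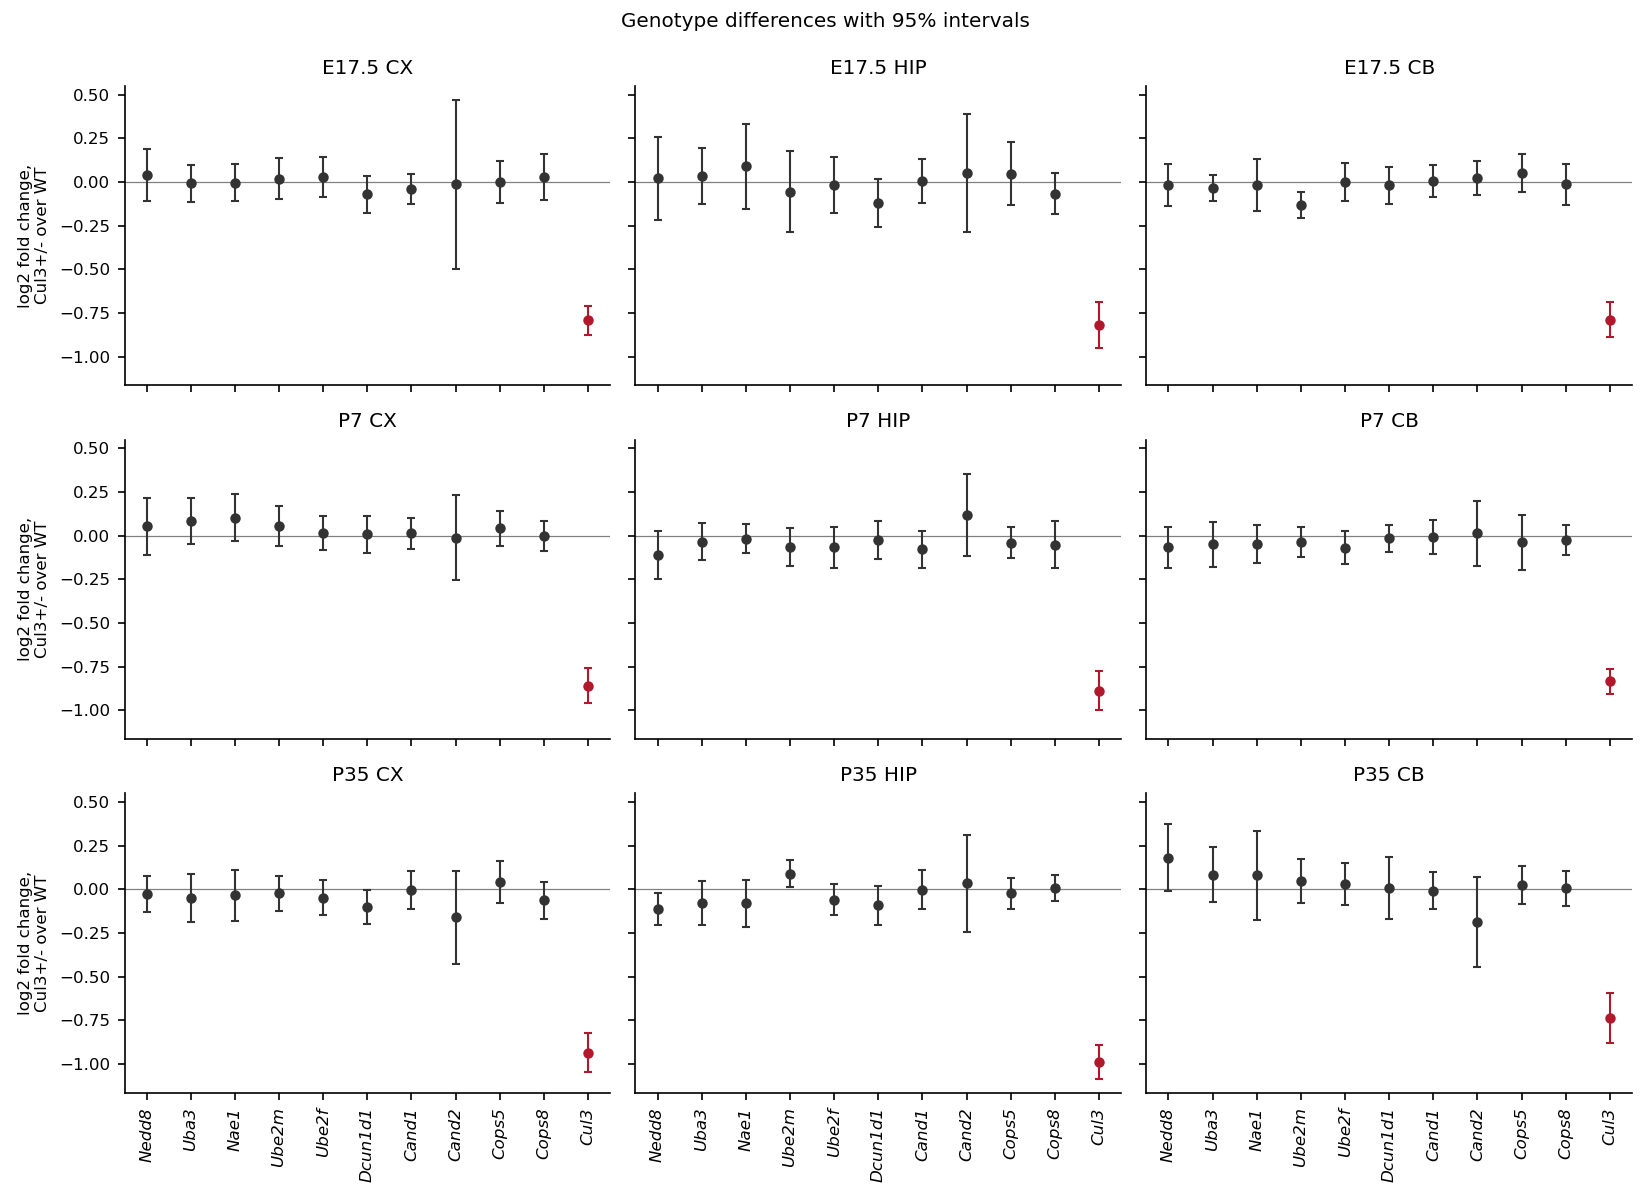
Log2 fold change of Cul3+/- over WT for each gene at each period and in each region, with 95% intervals from the edgeR fit, and Cul3 for comparison. The 10 regulators lie between -0.19 and 0.18, while Cul3 lies between -0.99 and -0.74.

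The second question was how the regulators changed during brain development, which was asked in WT mice and then in mutants. In WT mice 70 of the 90 tests between periods were called. By comparison, 7 of 10 were called from E17.5 to P7 in CX (background 81.9% of all genes), 7 in HIP (78%) and 8 in CB (71.2%). From P7 to P35 the numbers were 7 in CX (67.7%), 6 in HIP (62.7%) and 8 in CB (79.4%), and from E17.5 to P35 they were 9 in CX (85%), 8 in HIP (81.1%) and 10 in CB (82.2%). The libraries of both periods did not overlap for 46.7% to 68.6% of all genes in these 9 comparisons. The shares called were near those of all genes, so the size and direction of each gene's change carry the description. The comparisons of a region share libraries with each other.

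Cand2 fell at each step in each region, and its libraries did not overlap between any 2 periods. In WT CX the libraries ran from 19.6 to 41.2 CPM (median 23.7) at E17.5 and from 5.04 to 7.19 (median 6.11) at P7, and the adult libraries were at 3.28, 2.75, 3.78, 2.70 and 3.05 CPM. In WT HIP they ran from 27.6 to 46.1 CPM (median 33.9) at E17.5 and from 8.28 to 10.99 (median 10.1) at P7, and the adult libraries were at 4.85, 4.43, 5.29, 4.21 and 4.12 CPM. In WT CB the range was 27.5 to 31.4 CPM (median 29.9) at E17.5 and 14.4 to 20.3 (median 18.9) at P7, with adult values of 8.15, 7.46, 10.3, 7.88 and 7.61 CPM. The fall was earlier and deeper in CX and HIP than in CB.

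From E17.5 to P35, Cand2 fell by 3.17 on the log2 scale in CX (SE 0.205, adjusted p = 5.673e-11 in edgeR), by 2.98 in HIP (SE 0.147, adjusted p = 2.299e-12) and by 1.84 in CB (SE 0.0964, adjusted p = 1.743e-12). As folds, the adult WT level was 0.111 of the embryonic level in CX, 0.127 in HIP and 0.279 in CB. Between E17.5 and P7 the log2 fold changes were -2.21 in CX, -1.89 in HIP and -0.70 in CB, with SEs of 0.180, 0.129 and 0.0865. Between P7 and P35 they were -0.96, -1.09 and -1.138, with SEs of 0.196, 0.140 and 0.0951. Cand2 is best known from muscle, and summed skeletal muscle markers were at most 16.7 CPM in WT libraries.

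The changes of its paralog Cand1 were smaller. WT means of Cand1 were 257 ± 6.55 CPM in E17.5 CX, 243 ± 16.6 in HIP and 268 ± 10.6 in CB, and in adults 234 ± 19.8, 239 ± 14.3 and 207 ± 10.6. Cand1 fell in CX by 0.20 from E17.5 to P7 (SE 0.0539, adjusted p = 0.002427 in edgeR), without overlap. It fell in CB by 0.37 from E17.5 to P35 (SE 0.0514, adjusted p = 1.991e-06 in edgeR), without overlap, and in CX over that span by 0.15 (SE 0.0567, adjusted p = 0.02378), a call that was lost in DESeq2. In HIP it was not called between any periods. The mean WT ratio of Cand1 to Cand2 per kb went from 7.09 ± 2.1 at E17.5 to 26.8 ± 4.3 at P7 and 54.2 ± 11 in adult CX, from 4.88 ± 0.98 to 16.6 ± 1.8 and 36.9 ± 1.8 in HIP, and from 6.40 ± 0.15 to 8.69 ± 0.73 and 17.9 ± 2.6 in CB. These ratios are a description, since both genes enter the tests above.

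Genes taken here as progenitor markers were, in sum, also lower at later periods in CX and HIP. In bulk tissue fewer cells of a type and less RNA per cell cannot be told apart. The summed level of 5 progenitor markers (Mki67, Top2a, Hes5, Pax6 and Sox2, all 5 measured and above 0 in every library) was 303 to 712 CPM in WT E17.5 CX, 89.2 to 120 at P7 and 52.4 to 62.4 in adults. In HIP the ranges were 458 to 790, 147 to 193 and 63.4 to 66.9 CPM. In CB they were 647 to 867, 1004 to 1191 and 115 to 130 CPM, so that the marker sum was higher at P7 than at E17.5 there while Cand2 was lower. The 5 genes are not given singly here, and which cells carried their sum in each region and period was not tested. The part of progenitor cells in the fall of Cand2 was not tested either.

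The E17.5 libraries also differed among themselves. Names of the E17.5 mice hold S2, S3 or S4, with 2 WT and 2 HET mice each, and the labels do not say what these stand for. In CX the 4 mice named S3 had Cand2 at 35.9 to 41.2 CPM, against 22.6 to 25.2 in S2 and 19.6 to 21.7 in S4, and progenitor sums of 677 to 753 against 405 to 440 and 303 to 358 CPM. In HIP the S3 mice had Cand2 at 43.95 to 49.2 CPM against 30.6 to 36.9 and 27.6 to 32.9, and progenitor sums of 759 to 968 against 505 to 653 and 458 to 540 CPM. In CB they did not stand apart in Cand2 (28.2 to 30.8 CPM against 28.6 to 31.8 and 27.5 to 31.4), and their progenitor sums were the lower ones, 576 to 678 against 775 to 849 and 768 to 896 CPM. Without the S3 mice the WT change of Cand2 from E17.5 to P35 was -2.83 in CX, -2.77 in HIP and -1.86 in CB, and all were still called.

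**Figure D3:**
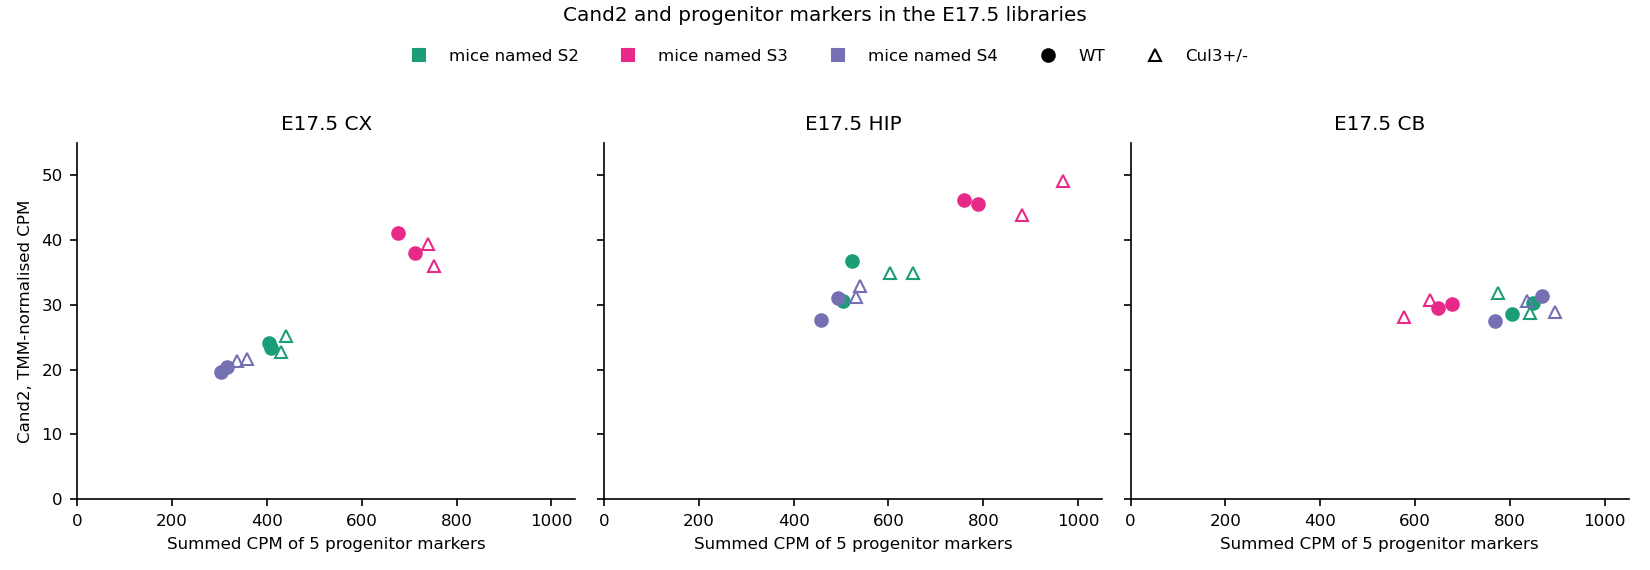
Cand2 level against the summed level of 5 progenitor markers in each E17.5 library, in CPM, by region, with colours for the part S2, S3 or S4 of the mouse name and open symbols for Cul3+/-. In CX and HIP the 4 S3 mice are highest on both axes, and in CB they are lowest on the marker axis and within the others' range of Cand2.

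Among the conjugating enzymes, Ube2f, the E2 that pairs with CUL5, rose at each step in each region. Its WT libraries ran from 24.0 to 27.1 CPM (median 26.2) in E17.5 CX, from 29.1 to 33.1 (median 31.2) at P7, and were at 38.9, 42.6, 35.9, 40.3 and 38.3 CPM in adults, without overlap between periods. From E17.5 to P35 the rise was 0.58 in CX (SE 0.0568, adjusted p = 1.962e-08 in edgeR), 0.54 in HIP (SE 0.064, adjusted p = 4.28e-07) and 0.69 in CB (SE 0.0498, adjusted p = 2.296e-10). The step from P7 to P35 in HIP, 0.17, was lost in at least 1 alternative. The other E2 gene, Ube2m, rose from E17.5 to P7 in CX (0.18, SE 0.0684, adjusted p = 0.02106) and HIP (0.35, SE 0.0875, adjusted p = 0.001651), and it fell in CB from P7 to P35 by 0.21 (SE 0.0541, adjusted p = 0.0019). The WT ratio of Ube2m to Ube2f per kb was 10.1 in E17.5 CX and 8.24 in adult CX, and 11.03 and 6.28 in CB.

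The genes of the 2 parts of the E1 enzyme both fell from E17.5 to P7 in CX and HIP, and they took different courses in CB and after P7. The difference between the 2 genes was not tested. Nae1, the regulatory part, fell from E17.5 to P7 in CX by 0.46 (SE 0.0766, adjusted p = 2.691e-05 in edgeR) and in HIP by 0.43 (SE 0.0884, adjusted p = 0.0002863), but rose in CB by 0.57 (SE 0.0888, adjusted p = 1.799e-05). In WT CB the libraries were at 55.1 to 62.0 CPM (median 57.2) at E17.5 and at 82.6 to 89.1 (median 87.3) at P7, without overlap. In adult CB they were at 75.2, 77.5, 47.3, 59.5 and 72.5 CPM, all below the P7 libraries, and the fall from P7 was 0.37 (SE 0.0933, adjusted p = 0.001514). Whether CB ended above its embryonic level was less sure (0.20, adjusted p = 0.05613 in edgeR), since that call was lost with upper-quartile normalization, without the low-count filter and when single replicates were left out. In WT CX the Nae1 libraries ran from 62.7 to 74.6 CPM (median 66.7) at E17.5 and from 42.6 to 55.4 (median 52.0) at P7.

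Uba3, the catalytic part of the E1, fell from E17.5 to P7 in CX by 0.35 (SE 0.0724, adjusted p = 0.000238 in edgeR), without overlap. In HIP the log2 fold change of Uba3 over that step was -0.14 (adjusted p = 0.06064 in edgeR), a call that was lost in at least 1 alternative. It rose from P7 to P35 in CX by 0.22 (SE 0.0758, adjusted p = 0.01641), in HIP by 0.30 (SE 0.0699, adjusted p = 0.001351) and in CB by 0.33 (SE 0.07, adjusted p = 0.0002914). Its WT CB libraries ran from 72.5 to 76.8 CPM at E17.5 and from 63.7 to 82.9 at P7, and were at 97.3, 101.9, 76.5, 91.4 and 93.5 CPM in adults. Nae1 relative to Uba3, per kb, was 1.02 in E17.5 CX, 0.950 at P7 and 0.791 in adults, and 0.974, 1.48 and 0.893 in CB. The ratio in CB was thus highest at P7.

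Cops5, which cleaves NEDD8 from cullins, was highest at P7 in each region. WT CX libraries were at 57.6 to 66.1 CPM (median 60.5) at E17.5 and at 71.2 to 81.4 (median 76.97) at P7, and the adult libraries were at 52.0, 55.4, 47.2, 51.7 and 51.6 CPM, so that no periods overlapped in CX. From E17.5 to P7 it rose by 0.27 in CX (SE 0.0537, adjusted p = 0.000187 in edgeR), 0.29 in HIP (SE 0.0675, adjusted p = 0.0009084) and 0.23 in CB (SE 0.0454, adjusted p = 0.0002361). From P7 to P35 it fell by 0.54 in CX (SE 0.0568, adjusted p = 1.906e-07), 0.44 in HIP (SE 0.0712, adjusted p = 4.38e-05) and 0.59 in CB (SE 0.0482, adjusted p = 1.908e-09). All 6 of these steps were without overlap.

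Cops8, a subunit without catalytic activity, rose like Cops5 from E17.5 to P7 in CB, by 0.20 (SE 0.0425, adjusted p = 0.000362 in edgeR), and in HIP by 0.14 (SE 0.0543, adjusted p = 0.02755), a call that was lost in at least 1 alternative. From P7 to P35, where Cops5 fell, its log2 fold changes were 0.13 in CX and 0.13 in HIP, both calls lost in at least 1 alternative, and it was not called in CB. Cops8 rose from E17.5 to P35 by 0.27 in HIP (SE 0.0569, adjusted p = 0.0003046 in edgeR) and by 0.21 in CB (SE 0.0445, adjusted p = 0.0003116), both without overlap, and by 0.13 in CX, a call that was lost in at least 1 alternative. WT means of Cops8 were 61.8 ± 4.98 CPM in E17.5 CX and 68.5 ± 4.54 in adult CX, and 56.4 ± 3.69 and 65.2 ± 1.56 in CB. The ratio of Cops5 to Cops8 per kb was 1.35, 1.38 and 1.39 in E17.5 CX, HIP and CB, 1.60, 1.53 and 1.41 at P7, and 1.02, 1.03 and 0.933 in adults.

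Dcun1d1, the DCN-type factor that brings the E2 to the cullin, rose from E17.5 to P35 by 0.14 in CX (SE 0.0577, adjusted p = 0.02975 in edgeR), 0.28 in HIP (SE 0.0621, adjusted p = 0.0004442) and 0.31 in CB (SE 0.0651, adjusted p = 0.0002448). The modifier gene Nedd8 changed most in CB, where it rose by 0.24 to P7 (SE 0.0775, adjusted p = 0.0122) and fell by 0.39 to P35 (SE 0.0818, adjusted p = 0.0002533). Its WT CB libraries ran from 63.9 to 78.7 CPM (median 71.4) at E17.5 and from 76.1 to 89.6 (median 86.7) at P7, and were at 63.7, 70.3, 49.2, 65.5 and 67.8 CPM in adults. Smaller calls of Nedd8 in CX (-0.19 from P7 and -0.17 from E17.5 to P35) and in CB (-0.16 from E17.5 to P35) were lost in at least 1 alternative.

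**Figure D4:**
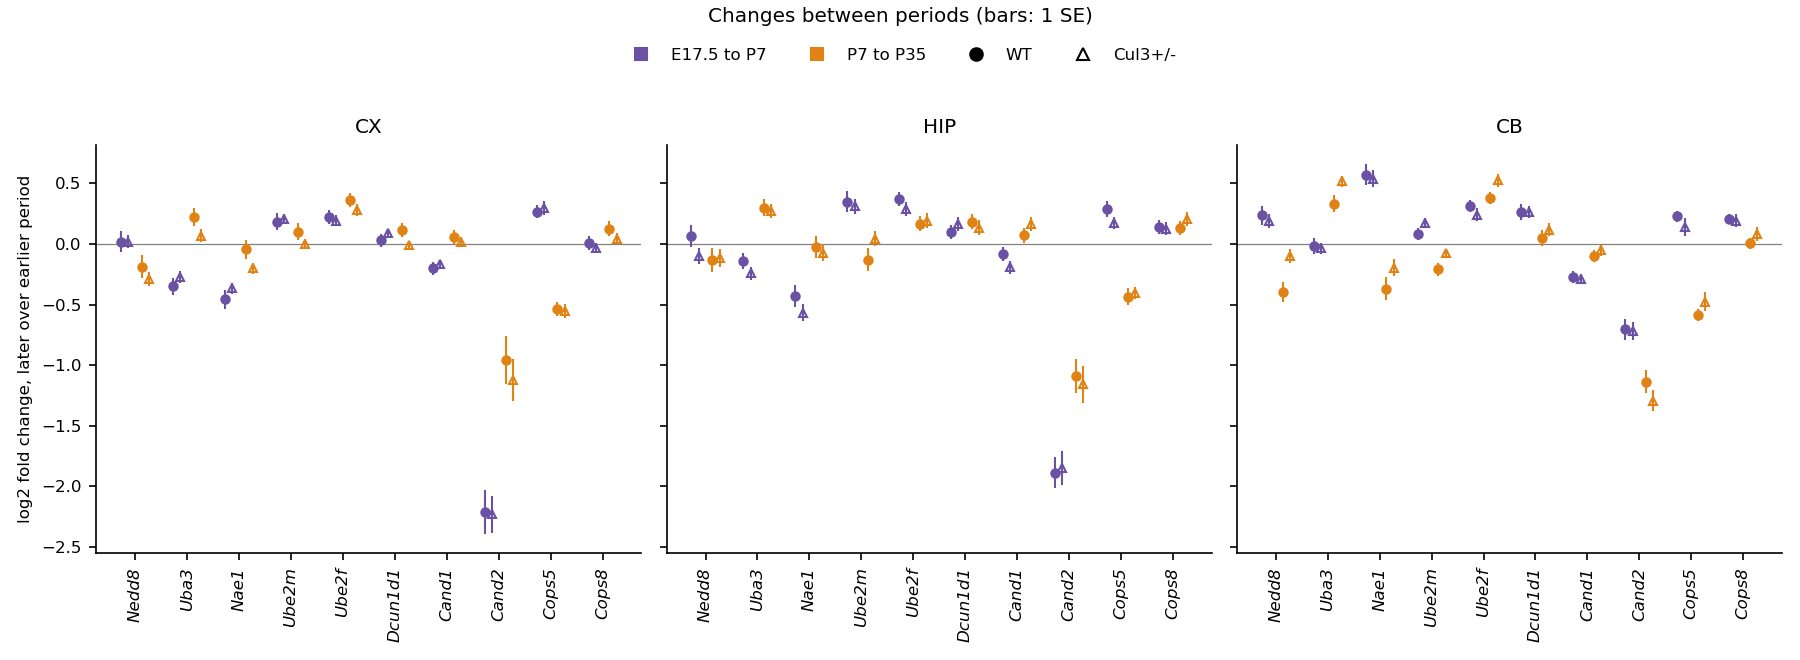
Log2 fold change of the later over the earlier period for each gene, in 1 panel per region, with colours for the steps E17.5 to P7 and P7 to P35, filled circles for WT, open triangles for Cul3+/- and bars of 1 SE from the edgeR fit. Cand2 has the most negative values, -2.21 in WT CX for the first step, and Ube2f lies above 0 at both steps in all regions.

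One adult WT cerebellum library, replicate 3 by the labels, was the lowest of its group for Nedd8 (49.2 CPM), Uba3 (76.5), Nae1 (47.3), Ube2m (59.1) and Dcun1d1 (57.7) and the highest for Cand2 (10.3), Ube2f (42.9) and Cops8 (67.6). Without it, the WT change in CB from E17.5 to P35 was 0.31 for Nae1 (adjusted p = 0.0001475 in edgeR), 0.38 for Uba3 (adjusted p = 9.453e-06) and -1.92 for Cand2 (adjusted p = 6.469e-13), and those of Ube2m (-0.08, adjusted p = 0.1262) and Nedd8 (-0.07, adjusted p = 0.2807) were no longer called. From P7 to P35 the falls of Nae1, Nedd8 and Ube2m were still called, with log2 fold changes of -0.27, -0.31 and -0.16.

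The same tests in mutant mice, which share no libraries with the WT tests, gave 70 called of 90. From E17.5 to P7, 8 of 10 were called in CX (background 85.3%), 9 in HIP (79.2%) and 8 in CB (75.1%), from P7 to P35 5 in CX (73.1%), 7 in HIP (65%) and 7 in CB (79.3%), and from E17.5 to P35 9 in CX (87.2%), 8 in HIP (83.1%) and 9 in CB (85%). Of the 70 calls in WT mice, 60 were called in the same direction in mutants, 9 were called in WT mice only and 1 was called in the opposite direction, and 9 others were called in mutants only. The median size of the difference between the WT and the mutant log2 fold change was 0.0756 and the largest was 0.295. The log2 fold changes of Cand2 in mutants from E17.5 to P35 were -3.35 in CX, -3.003 in HIP and -2.01 in CB, with SEs of 0.178, 0.160 and 0.0846. The opposite call was that of Ube2m in CB from E17.5 to P35, which fell by 0.13 in WT mice (SE 0.054, adjusted p = 0.03951 in edgeR) and rose by 0.10 in mutants (SE 0.0354, adjusted p = 0.01543), and the WT call was lost when single replicates were left out. The interaction test of that gene is the one given above, which was not called.

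The third question was where in the brain the regulators differed. With mouse as a block in WT mice, 37 of 90 tests between regions were called. At E17.5, 1 gene was called between HIP and CX (background 46.5%), 3 between CB and CX (61.7%) and 3 between CB and HIP (49.5%). At P7 the numbers were 3 (57%), 6 (82.9%) and 6 (78.2%), and in adults 3 (51.5%), 6 (75.4%) and 6 (75.1%). In mutants 51 of 90 were called, in the same order of comparisons 4 (53%), 5 (61.4%) and 4 (53%) at E17.5, 8 (53.3%), 3 (79.9%) and 7 (75%) at P7, and 3 (59.2%), 8 (80%) and 9 (77.2%) in adults. Of the 37 WT calls 32 were called in the same direction in mutants and 0 in the opposite one.

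Cand2 was higher in HIP than in CX at each period, by 0.44 at E17.5 (SE 0.126, adjusted p = 0.01387 in edgeR), 0.66 at P7 (SE 0.0769, adjusted p = 5.581e-06) and 0.54 in adults (SE 0.0826, adjusted p = 0.000171). It was higher in CB than in CX by 1.62 at P7 (SE 0.0762, adjusted p = 2.54e-11) and 1.40 in adults (SE 0.0808, adjusted p = 6.199e-09), where it was not called at E17.5. The order CX, HIP, CB was without overlap at both P7 and P35, where 27.3% to 59.3% of all genes did not overlap between a pair of regions. The progenitor sum in CB was above that of HIP and CX at P7 and at P35, and its part in this order was not tested.

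Nae1 was higher in CB than in CX by 0.82 at P7 (SE 0.0452, adjusted p = 1.695e-10 in edgeR) and by 0.44 in adults (SE 0.0776, adjusted p = 0.0002434), and lower by 0.21 at E17.5, a call that was lost in at least 1 alternative. At P7 the 6 WT libraries of CB were at 82.6 to 89.1 CPM, those of HIP at 49.7 to 53.9 and those of CX at 42.6 to 55.4. Its partner Uba3 was higher in adult CB than in adult CX by 0.26 (SE 0.0421, adjusted p = 0.0001059). In adults Ube2m was lower in CB than in CX by 0.33 (SE 0.0579, adjusted p = 0.0002401), Cops5 by 0.20 (SE 0.0451, adjusted p = 0.001688) and Cand1 by 0.18 (SE 0.0527, adjusted p = 0.008402). Ube2f was higher in adult CB than in HIP by 0.17 (SE 0.0483, adjusted p = 0.007337), and Nedd8 was higher at P7 in CB than in HIP by 0.24 (SE 0.0682, adjusted p = 0.005069).

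Whether the change over time itself differed between regions was tested in 1 model of the WT libraries, and 19 of 60 tests were called. From E17.5 to P7 there were 1 call of 10 for HIP against CX (background 38.6%), 5 for CB against CX (69.6%) and 5 for CB against HIP (65.9%), and from P7 to P35 there were 1 (17.6%), 3 (61%) and 4 (57.5%). The change of Cand2 from E17.5 to P7 was less negative in CB than in CX by 1.45 (SE 0.134, adjusted p = 2.487e-11 in edgeR) and than in HIP by 1.17 (SE 0.132, adjusted p = 2.609e-09). The change of Nae1 over that step was higher in CB than in CX by 1.03 (SE 0.103, adjusted p = 1.469e-10) and than in HIP by 1.02 (SE 0.103, adjusted p = 2.468e-10), and from P7 to P35 it was lower in CB by 0.35 in both contrasts. Without the S3 mice the E17.5 to P7 differences of Cand2 were 1.20 and 1.02 and were still called.

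The levels of Nedd8 and Cand1 were also set against those of the cullins they act on. The WT ratio of Nedd8 to the summed per-kb level of Cul1, Cul2, Cul3, Cul4a, Cul4b and Cul5 was 0.468, 0.474 and 0.508 in CX, HIP and CB at E17.5, 0.557, 0.544 and 0.551 at P7 and 0.479, 0.450 and 0.437 in adults. The WT ratio of Cand1 to the same sum was 0.175, 0.174 and 0.205 at E17.5 and 0.181, 0.170 and 0.153 in adults. In CB the WT ratios of Cand1 did not overlap between E17.5 (0.199 to 0.217) and adults (0.139 to 0.174). In mutants the mean ratios were higher than in WT in all 9 combinations, 0.487 to 0.639 for Nedd8 and 0.161 to 0.233 for Cand1, and the lowered Cul3 is part of their sum. These ratios are descriptions without a test.

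**Figure D5:**
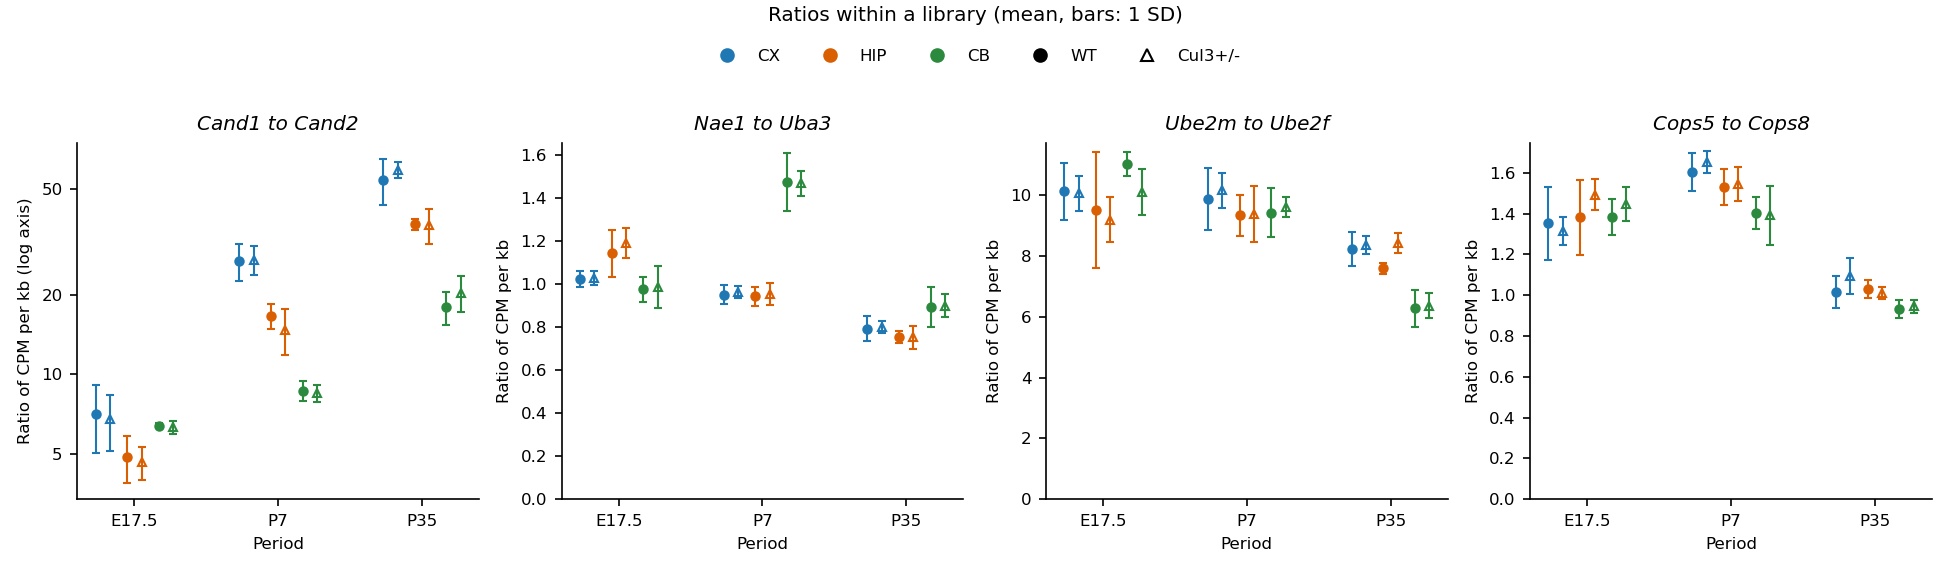
Mean ratios of levels per kb within a library (Cand1 to Cand2 on a log axis, Nae1 to Uba3, Ube2m to Ube2f, Cops5 to Cops8), by period and region, with filled circles for WT, open triangles for Cul3+/- and bars of 1 SD. In WT mice the ratio of Cand1 to Cand2 is highest in adult CX at a mean of 54.2, and that of Nae1 to Uba3 in P7 CB at 1.48.

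The other genes of the pathway were taken from lists of 12 neddylation genes, 8 COP9 subunit genes and 8 cullins. Between genotypes 0 of the 12 and 0 of the 8 COP9 genes were called in any of the 9 combinations, and Cul3 alone among the cullins. From E17.5 to P35 in WT mice, 3 of the 12 neddylation genes rose and 7 fell in CX, 4 rose and 4 fell in HIP, and 5 rose and 2 fell in CB, where 85%, 81.1% and 82.2% of all genes were called in either direction. Their median log2 fold changes were -0.27, -0.05 and 0.03, beside medians of -0.05, -0.06 and -0.03 over all genes. Dcun1d4, a relative of Dcun1d1, rose by 1.26 in CX (SE 0.0895) and 1.16 in HIP (SE 0.0873), and Dcun1d2 by 0.67 in CB (SE 0.0803). Uchl3, a hydrolase that can process the NEDD8 precursor, fell by 1.27 in CX (SE 0.0791) and by 1.43 in CB (SE 0.0689), and Dcun1d3 fell by 0.84 in HIP (SE 0.0779).

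Of the 8 other COP9 genes, 3 rose and 3 fell in CX, 4 rose and 1 fell in HIP, and 3 rose and 4 fell in CB, beside the same 85%, 81.1% and 82.2% of all genes, with medians of -0.05, 0.21 and -0.07. Here too a pair of paralogs moved apart, Cops7a and Cops7b, which encode alternative versions of 1 subunit. Cops7a rose by 1.49 in CX, 1.55 in HIP and 1.20 in CB (SEs of 0.0802, 0.0750 and 0.0579), from a WT mean of 24.9 ± 2.79 CPM at E17.5 to 70.5 ± 3.65 CPM in adult CX. Cops7b fell by 0.80 in CX, by 0.90 in HIP and by 1.16 in CB (SEs of 0.0649, 0.0711 and 0.0575), from 29.0 ± 1.59 to 16.8 ± 0.928 CPM in CX. Of the 8 cullins, 1 rose and 6 fell in CX, 3 rose and 2 fell in HIP, and 2 rose and 2 fell in CB, again beside 85%, 81.1% and 82.2% of all genes, with medians of -0.15, 0.07 and 0.06. Cul7, an atypical cullin, had the largest fall among them, with log2 fold changes of -1.59 in CX, -2.04 in HIP and -1.49 in CB (SEs of 0.0683, 0.0743 and 0.0770). Cul9, another atypical cullin, had the largest rise in CX, by 0.45 (SE 0.102, adjusted p = 0.0005518 in edgeR), and in HIP, by 0.67 (SE 0.118, adjusted p = 5.468e-05), and Cul4b in CB, by 0.29 (SE 0.0658, adjusted p = 0.0005563). The adjusted p of Cops7a, Cops7b and Cul7 was 1.53e-09 or lower in each region by edgeR.

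Over the 9 WT group means, and among 12634 genes with at least 1 CPM in each group, the genes whose log2 levels were most like Cand2 were Gtf3c5 (Pearson r = 0.992), Kdelc1 (0.990) and Mdk (0.988). The closest to Ube2f were Slc25a11 (0.992), Lysmd2 (0.990) and Abcb1a (0.990), and the closest to Nae1 were Cradd (0.957), Mmadhc (0.954) and Chchd5 (0.953). Dcun1d1 and Cops8 were each among the 3 closest genes to the other (0.969). Nedd8 was closest to Gm6563 (0.991) and Cops5 to Cib2 (0.986), and the highest r of Uba3, Ube2m and Cand1 was between 0.929 and 0.959. Between these 10 genes the lowest r was that of Cand2 with Cops8 (-0.862). The 9 means share mice across regions and are few, so these values only describe the pattern.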

How the data were processed

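Total RNA depleted of ribosomal RNA was sequenced as stranded libraries. The authors deposited RSEM expected counts of 53465 genes in 108 libraries without normalization, made with Cutadapt 1.14, STAR 2.5.3a and RSEM 1.3 on GRCm38, and 5.76% of the values were not whole. Mice of both sexes were used, but whether RSEM used strand, and the sex of each single mouse, are not given in the sources used here. Rounded values entered edgeR 4.0.16 under R 4.3.3 (filterByExpr with a minimum count of 10 and total of 15, TMM, quasi-likelihood, Benjamini-Hochberg over all genes, threshold 0.1). The SE was taken from the log2 fold change and the F statistic of the same test. Genotype was tested in each period and region, period within each region and genotype, region within each period and genotype with mouse as a block, and interactions in joint models. Replicates are separate mice.

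The 10 genes and all lists were chosen with earlier results of these data known. All 10 were named, with genotype values where the unadjusted p was under 0.05, and from each other list the largest rise and fall from E17.5 to P35 in WT mice. The correction for unwanted variation that the authors describe, with sex as a covariate, could not be matched. The alternatives were DESeq2 1.42.0, upper-quartile factors, testing without the low-count filter, the likelihood ratio test, RUVs with 3 and 5 factors, replicate number as a block, either source of genotype for the 2 adult mice, and each replicate left out. For the fits with mouse as a block, leaving out that block was a further alternative. The middle part of the mouse name as a block, and leaving out the E17.5 mice named S3, were added after the data were seen. Same-numbered WT and mutant libraries of E17.5 CX deviated together in all 6 pairs (r from 0.113 to 0.759). The same-numbered mutant library was the best match of the WT library in 4 of them. Same-numbered mice there also share the part S2, S3 or S4 of their names, so a pairing by number itself is not shown. With replicate number as a block there were also 0 calls there. The tests were also run on simulated counts, which held no effect of mouse and no sets like S2, S3 and S4. Their outcome is not given here, and no conclusion is drawn from them.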

Additional observations from a re-analysis of the deposited data

Results flagged for a closer look

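In 8 of the 180 groups of libraries 1 library stood apart from the rest by Dixon's ratio, where chance alone would give about 1 in 20 groups. The lowest library of Nedd8 was at 57.6 CPM in WT P7 CX and at 59.99 CPM in WT adult HIP. The highest library of Nae1 was at 75.54 CPM in HET E17.5 CX, and that of Dcun1d1 at 71.71 CPM in HET P7 CB. Cand1 had a lowest library of 219.5 CPM in HET P7 CX and a highest of 244.3 CPM in HET adult CX. Cand2 had a highest library of 7.785 CPM in HET P7 CX and of 10.3 CPM in WT adult CB, the latter the replicate 3 library that was lowest for 5 of the other genes.

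The change between periods differed between regions in WT mice, by the test of the difference in edgeR, in 19 cases, given here as differences of log2 fold changes. From E17.5 to P7, CB exceeded CX by 1.448 for Cand2, 1.032 for Nae1, 0.3318 for Uba3, 0.236 for Dcun1d1 and 0.1965 for Cops8. Over the same step CB exceeded HIP by 1.17 for Cand2, 1.021 for Nae1 and 0.1901 for Dcun1d1, while the difference was -0.2472 for Ube2m and -0.1645 for Cand1, and HIP exceeded CX by 0.1809 for Uba3. From P7 to P35, the difference of CB from CX was -0.3472 for Nae1, -0.3154 for Ube2m and -0.156 for Cand1, that of CB from HIP was -0.3546 for Nae1, -0.2656 for Nedd8, -0.1643 for Cand1 and 0.2177 for Ube2f, and that of HIP from CX was -0.207 for Ube2f. Cand2 and Nae1 from E17.5 to P7 held in all alternatives.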

How the results depend on the processing

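No alternative gave a called genotype difference or interaction for the 10 genes, the replicate block included. The share of all genes called between genotypes under these alternatives is not given here, so this result stands without a background. Of the 70 WT calls between periods 52 held in every alternative and without every replicate, of the 37 between regions 22, and of the 19 differences in the period change 13. The total of period calls was 61 to 69 over the alternatives and 64 with the replicate block, that of region calls 28 to 39, and that of differences in the period change 17 to 25. With single replicates left out these totals were 62 to 71, 32 to 39 and 19 to 27. For these totals too, the share of all genes called is not given here. Upper-quartile normalization moved the median of all genes from -0.063 to -0.165 in WT HIP from E17.5 to P35.

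Among the regulators described here, some counts of called genes changed by more than 1.5 times, and the cause was not tested. The share of all genes called under these alternatives is not given here, so these counts stand without a background. Without the low-count filter they were 3 for WT HIP from P7 to P35, 1 for WT E17.5 CB against CX, 1 for WT P7 HIP against CX, 3 for HET P7 HIP against CX and 1 for HET adult HIP against CX. With upper-quartile normalization they were 5 for WT E17.5 CB against HIP, 1 for HET E17.5 HIP against CX, 3 for HET P7 HIP against CX and 0 for the E17.5 to P7 change of HIP against CX. With DESeq2 they were 1 for WT P7 HIP against CX, 4 for HET P7 CB against HIP, 0 for the E17.5 to P7 change of HIP against CX and 7 for the P7 to P35 change of CB against HIP. Without mouse as a block they were 1 for WT P7 HIP against CX and 0 for the E17.5 to P7 change of HIP against CX. Without the S3 mice they were 2 for WT E17.5 HIP against CX, 3 for the E17.5 to P7 change of HIP against CX, and 2 (HIP against CX) and 6 (CB against CX) for that from P7 to P35.

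The share of all genes called with single replicates dropped is not given here either. When single replicates were dropped, the calls among these regulators ranged from 4 to 7 for WT CX from P7 to P35. At E17.5 in WT mice they were 1 to 4 (CB against CX), 1 to 3 (CB against HIP) and 1 to 2 (HIP against CX), and at P7 they were 3 to 7 (CB against CX) and 1 to 2 (HIP against CX). For the period change they were 0 to 2 (E17.5 to P7, HIP against CX), 3 to 5 (P7 to P35, CB against CX), 3 to 7 (CB against HIP) and 0 to 2 (HIP against CX). The 1 reversal was Cops8 between CB and HIP at P7, -0.025 without WT replicate 4 and 0.107 without replicate 3, where its call was small (0.09).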

Other observations

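The 2 adult mice with conflicting genotypes were left out of the comparisons for that conflict and not for their Cul3 levels, which lay with the genotype of the sample labels. Cul3 in the mouse labelled HET was at 95.7 CPM in CX, 98.98 in HIP and 121.2 in CB, within the ranges of the other adult HET libraries (91.5 to 100.8, 93.6 to 104.1 and 119.8 to 129.0). Cul3 in the mouse labelled WT was at 195.5, 203.04 and 226.9 CPM, where the other adult WT libraries spanned 160.2 to 201.7, 179.5 to 215.7 and 168.4 to 221.4. With the genotypes of either source, 0 genotype tests of the 10 genes were called. The same mice gave 60 values of the 10 genes, of which 53 lay within the range of the other adult libraries of the same region. The mouse labelled WT was outside it for Uba3 (87.9 CPM, others 63.5 to 85.4), Dcun1d1 (83.1, others 67.6 to 80.9) and Cand2 (2.49, others 2.499 to 3.71) in CX, for Cops5 (57.2, others 49.4 to 57.0) and Cops8 (76.8, others 64.8 to 73.3) in HIP, and for Dcun1d1 (80.8, others 57.7 to 80.6) in CB. The mouse labelled HET was outside it for Ube2m in HIP (81.4, others 69.7 to 80.5).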
